A study of Drosophila melanogaster with 3 samples.

Results

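The vacuolar ATPase (V-ATPase) is a proton pump made of many subunits, and the 33 genes described here are all Drosophila melanogaster protein-coding genes of the dm6 annotation whose symbol begins with Vha, out of 13945 protein-coding genes on the main chromosome arms. ChIP-seq had mapped the CG12155 protein, fused at its C terminus to eGFP, in whole embryos of a stable transgenic line. There was a single group, with 3 biological replicates by the labels, each from pooled male and female embryos aged 0 to 24 hours and precipitated with an antibody against GFP. The control experiment named in the labels was not analysed here, and whether these places would be enriched without the fusion protein was not tested. The design holds no comparison between conditions. A gene was called bound when an optimal summit, the highest point of a peak that passed the authors' irreproducible discovery rate filter, lay within 500 bp of any of its transcription start sites (TSSs). Whole embryos mix all cell types, so a peak does not say in which cells the protein was present.

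The V-ATPase works as a rotary motor. Its V1 part, in the cytoplasm, splits ATP and turns a central shaft, and its V0 part, in the membrane, carries protons across as the ring of c subunits turns. The pump acidifies lysosomes, endosomes and secretory vesicles in every cell, and it also sits in the outer membrane of some fly epithelia such as the Malpighian tubule. Drosophila encodes many subunits in several copies, of which 1 is usually used widely and the others in few tissues, often the testis. From this general knowledge, and not from the files, 14 genes were classed as widely used copies, 15 as tissue-restricted paralogs and 4 as copies of unclear use.

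Summits of the tagged protein lay at the starts of 13 of the 33 genes, or 39.4%, beside 26.2% of all protein-coding genes. The widely used copies held 9 of these 13: Vha16-1, Vha100-2, Vha55, Vha36-1, VhaM9.7-b, Vha26, Vha68-2, Vha44 and Vha13, or 64.3% of 14. The tissue-restricted paralogs held 3 of 15 (20%), namely Vha16-5, VhaM9.7-c and Vha100-1, and the copies of unclear use 1 of 4, Vha68-1. In lists limited to the 5202 strongest regions of each replicate, as many as the optimal list holds, 13, 12 and 14 of the 33 genes had a promoter summit in replicates 1, 2 and 3, beside 26.5%, 25.1% and 25.4% of all genes. That was 39.4% ± 3.03 (SD, n = 3). The widely used copies reached 61.9% ± 4.12 and the tissue-restricted paralogs 22.2% ± 3.85 (SD, n = 3 each). The values of the former were 64.3%, 57.1% and 64.3% and those of the latter 20%, 20% and 26.7%. The same list of genes was scored in each replicate, though the genes called differed, so these SDs describe how calls repeat and not how genes of a class vary. By part of the pump, 7 of 13 V1 genes (53.8%; 7, 5 and 7 in the replicates), 6 of 18 V0 genes (33.3%; 6, 6 and 7) and neither of the 2 accessory genes were bound. Widely used copies made up a larger share of the V1 genes than of the V0 genes. What part this had in the shares bound was not tested. No test was made of these shares, because the genes were chosen with earlier results known.

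**Figure D1:**
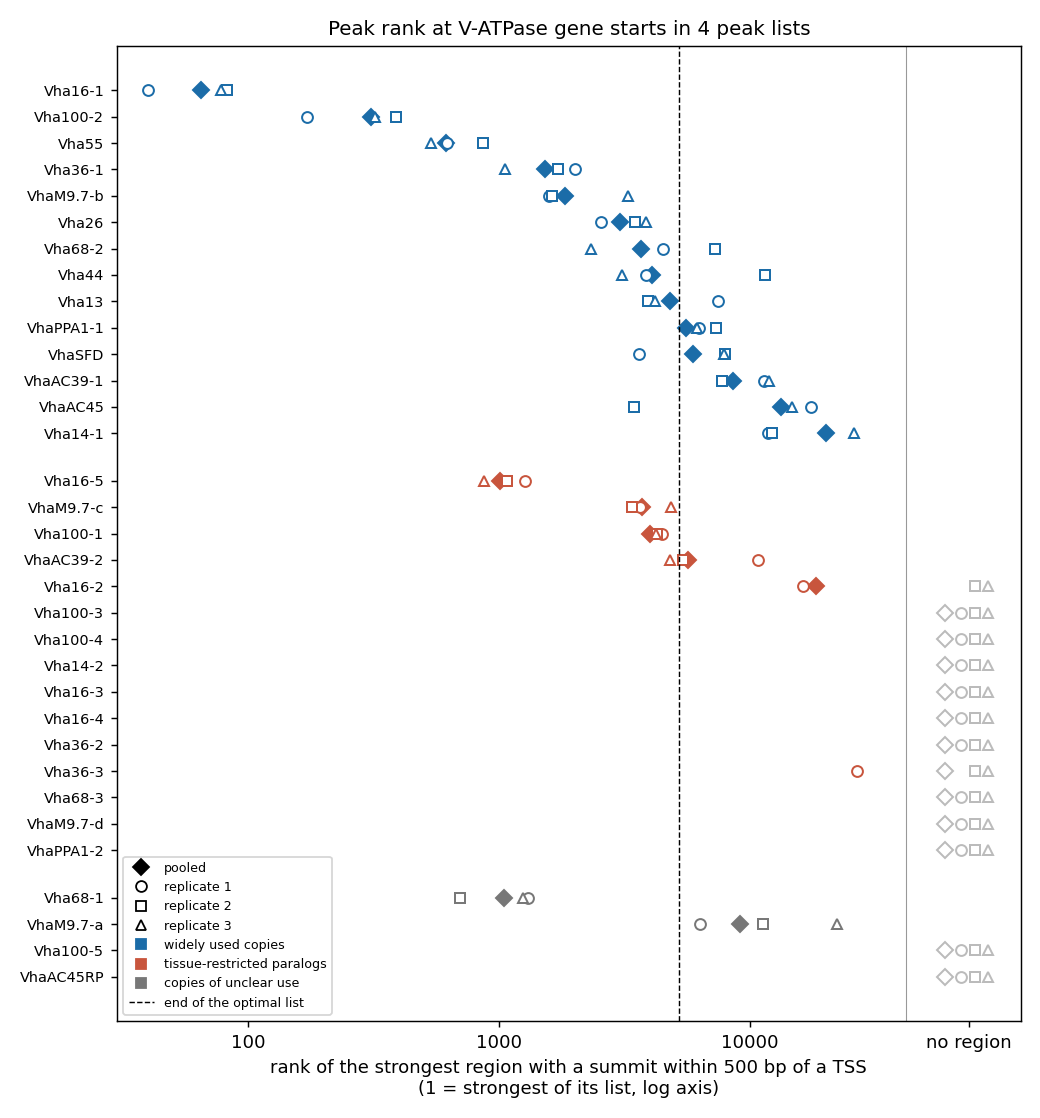
Rank of the strongest region with a summit within 500 bp of a TSS (log axis, 1 is the strongest) for each of the 33 V-ATPase genes, in the pooled list (filled diamonds) and in replicates 1 (circles), 2 (squares) and 3 (triangles), with genes that have no such region at the right. The dashed line marks rank 5202, the end of the optimal list. All 14 widely used copies have a region in every list, while 10 of the 15 tissue-restricted paralogs have none in the pooled list.

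The strongest V-ATPase peak lay at Vha16-1, which encodes the c subunit of the proton-carrying ring. Its interval, chr2R:6632130-6633441 in dm6, holds 2 summits that ranked 65 and 66 of the 5202 optimal peaks, with signals of 1582.9 and 1561. Signal is the authors' own value for a peak and is used here for ranks within a list. The summits lay 85 and 99 bp upstream of different Vha16-1 TSSs, the first outside the gene and the second in an intron, and no other protein-coding start lay within 500 bp of either. The strongest overlapping region ranked 40, 82 and 78 in replicates 1, 2 and 3, so the peak was near the top in each. Weaker optimal summits lay in introns of the same gene, 819 and 3906 bp downstream of the nearest TSS, with ranks 4555 and 2281.

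Vha100-2 encodes the widely used a subunit, the static membrane part through which protons enter and leave the ring. A summit at chr3R:18398972-18399345 (rank 309) lay in its 5' UTR, 26 bp downstream of a TSS and with no other protein-coding start within 500 bp. A second, at chr3R:18397062-18397362 (rank 400), lay 290 bp upstream of another Vha100-2 TSS. That summit was nearer to Vti1b, the gene of a SNARE of endosomal membrane fusion, 223 bp downstream of its TSS. Regions overlapping the first peak ranked 172, 679 and 508 in replicates 1, 2 and 3, and those overlapping the second ranked 466, 390 and 319. The peak in the 5' UTR was thus the stronger in replicate 1, and the one nearer Vti1b in replicates 2 and 3. Vha55 encodes the B subunit of the V1 head, and its peak at chr3R:12627763-12627974 ranked 614, with ranks of 621, 862 and 533 in the replicates. The summit was 51 bp upstream of Vha55 and 151 bp upstream of Snx3, a sorting nexin gene on the opposite strand.

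The A subunit, the catalytic part of V1, is encoded by 3 genes that lie close together on chromosome arm 2L. The strongest peak of these was at Vha68-1, at chr2L:13004143-13004345 (rank 1046), with ranks of 1307, 701 and 1243 in the replicates. Its summit lay 130 bp upstream of Vha68-1 and 243 bp upstream of mTor, which encodes the TOR kinase of nutrient signalling, and the 2 genes start 373 bp apart on opposite strands. Vha68-2 had a weaker peak at chr2L:12973956-12974385 (rank 3670), 151 bp upstream of a TSS and with no other gene start in the window. Replicates 1, 2 and 3 ranked it 4517, 7245 and 2330, so replicate 2 placed it below its 5202 strongest regions. Vha68-3, which starts beside the end of Vha68-2, had no region within 500 bp of its TSS in any of the 4 relaxed lists.

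The sequences around 6 summits are shown because they cover bound genes with a start of their own and bound genes that share a start region with a neighbour. They come from the RefSeq copy of the Release 6 genome, whose arms are those of dm6, as 50 bases either side of the summit on the strand of the V-ATPase gene, cut back where an annotated UTR begins. Capitals mark matches to the motifs described further on, and a line without capitals holds none. Vha55 (chr3R:12627830-12627930), Vha68-1 (chr2L:13004187-13004287), Vha68-2 (chr2L:12974121-12974221), Vha13 (chr3R:19644420-19644520), VhaM9.7-c (chr3L:4186881-4186981) and Vha16-5 (chr2L:10737263-10737344) read 5′ to 3′ on the minus strand, except Vha68-2 on the plus strand:
Vha55: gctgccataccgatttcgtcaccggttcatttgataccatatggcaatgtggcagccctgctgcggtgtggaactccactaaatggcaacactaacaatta
Vha68-1: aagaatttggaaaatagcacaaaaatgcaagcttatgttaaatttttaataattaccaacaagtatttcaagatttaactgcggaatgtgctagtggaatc
Vha68-2: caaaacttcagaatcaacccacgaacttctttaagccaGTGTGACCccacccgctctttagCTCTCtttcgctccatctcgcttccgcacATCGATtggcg
Vha13: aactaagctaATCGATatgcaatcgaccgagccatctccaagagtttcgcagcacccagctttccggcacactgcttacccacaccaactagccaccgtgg
VhaM9.7-c: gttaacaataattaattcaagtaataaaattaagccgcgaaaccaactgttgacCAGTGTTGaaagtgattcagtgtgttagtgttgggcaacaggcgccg
Vha16-5: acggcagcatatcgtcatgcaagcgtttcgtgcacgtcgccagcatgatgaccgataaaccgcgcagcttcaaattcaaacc

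The remaining bound V1 genes were all widely used copies. Vha36-1 encodes subunit D, the shaft of the rotor, and its peak (rank 1520; replicates 2016, 1711 and 1058) had its summit 72 bp upstream of the gene, on the TSS of CG8187 itself. Vha26 encodes subunit E of the outer stalk, and its peak at chr3R:5591345-5591774 ranked 3032, and 2560, 3469 and 3868 in the replicates. The summit was 203 bp upstream of Vha26 and 101 bp upstream of noi, a splicing factor gene. Vha44 encodes subunit C, which joins V1 to V0, and its peak ranked 4090. Replicates 1 and 3 ranked it 3841 and 3089, but replicate 2 ranked it 11471. The summit was 105 bp upstream of Vha44. It lay inside Hmgs, the gene of HMG-CoA synthase, in annotated 5' UTR and 18 bp upstream of an internal TSS of that gene.

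Vha13, which encodes subunit G of the outer stalk, had the weakest promoter peak of the 13 genes, at chr3R:19644255-19644684 (rank 4807). Replicates 1, 2 and 3 ranked it 7479, 3921 and 4191, so replicate 1 placed it outside its 5202 strongest regions. Its summit was 84 bp upstream of the TSS with no other start in the window. A stronger summit, of rank 1284, lay 1254 bp downstream of the same TSS, in an exon at the far end of Vha13 and within 500 bp of the start of subdued.

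In V0, the e subunit is a small membrane protein encoded by 4 genes, and 2 of these were bound. VhaM9.7-b, the widely used copy, carried 2 summits, at chr3L:21539379-21539808 (rank 1827) and chr3L:21539582-21540011 (rank 4099), 268 and 65 bp upstream of its start. The stronger was nearer to COX8, a cytochrome c oxidase gene on the other strand, at 147 bp. For both peaks the strongest overlapping region ranked 1579, 1628 and 3267 in replicates 1, 2 and 3. VhaM9.7-c, classed as tissue-restricted, had a peak at chr3L:4186716-4187145 (rank 3703; replicates 3657, 3375 and 4866), 66 bp upstream of its start, with no other protein-coding start in the window. All 3 replicates held it among their 5202 strongest regions.

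The other 2 bound tissue-restricted paralogs shared their start regions with a neighbour. Vha16-5, a copy of the c subunit gene, had a peak at chr2L:10737199-10737409 (rank 1006) that ranked 1264, 1071 and 867 in the replicates. Its summit was 270 bp upstream of Vha16-5 but 32 bp upstream of CG12299. Vha100-1, the copy of the a subunit known for its role at synapses, had a peak at chr3R:29130882-29131311 (rank 3980; replicates 4469, 4272 and 4211). The summit lay 96 bp upstream of Vha100-1 and 125 bp upstream of dgt6, which encodes a subunit of the augmin complex of the spindle. The data do not say which gene of such a pair a peak belongs to.

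**Figure D2:**
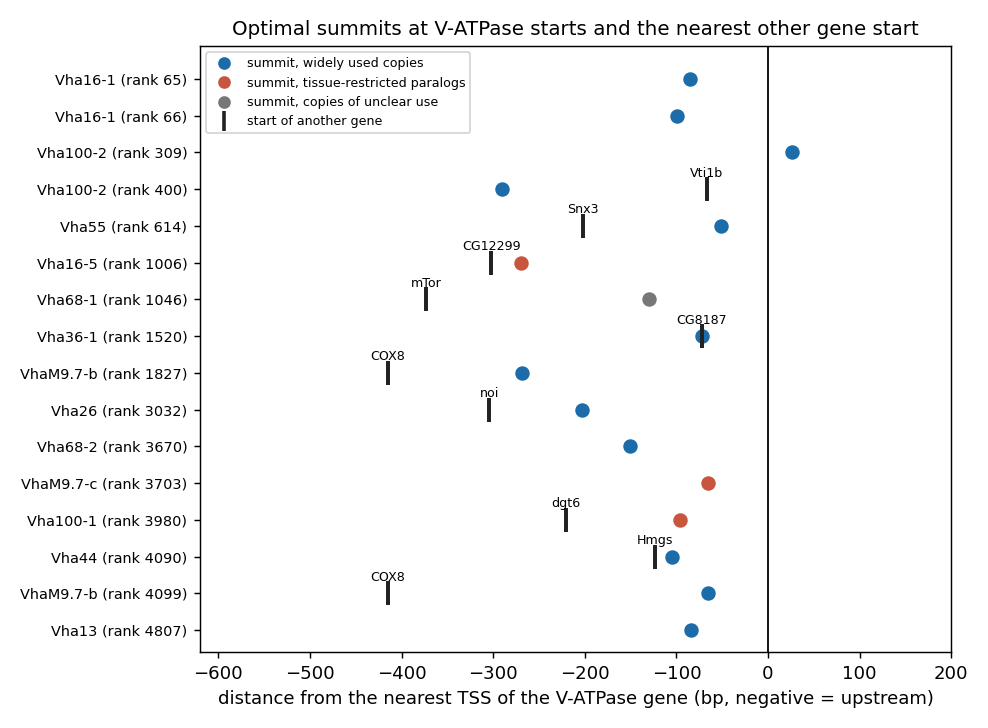
Distance in bp of each of the 16 optimal summits at V-ATPase genes from the nearest TSS of that gene (circles, negative upstream, blue for widely used copies, red for tissue-restricted paralogs, grey for copies of unclear use), with the nearest start of another protein-coding gene within 500 bp of the summit (black ticks). Of the 16 summits 15 are upstream, and 10 have another gene start in the window.

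Across the 13 bound genes there were 16 optimal summits, with a median position of -97.5 bp from the V-ATPase start (negative values are upstream), a lowest of -290 bp and a highest of 26 bp. Over all 2932 promoter summits the median was -92 bp from the nearest start. The bases within 100 bp of the summits were 41.5% G and C in the median at V-ATPase genes and 35.3% at all optimal summits. The latter include summits away from promoters, so the 2 sets are not alike. Another protein-coding start lay within 500 bp of 10 of the 16, and for 10 of the 16 the V-ATPase start was the nearer or the only one. All 3 replicates placed a region overlapping the peak among their 5202 strongest for 13 summits (81.2%), and 2 replicates did so for the other 3, at Vha68-2, Vha44 and Vha13. Of all optimal peaks, 73.2% were placed so by all 3. The 2 summits at Vha16-1 were matched to the same replicate regions, and so were the 2 at VhaM9.7-b. The summits of each of these genes were therefore not supported separately.

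Head-to-head genes, which have the TSS of an opposite-strand gene within 500 bp upstream, made up 13 of the 33 V-ATPase genes. Of these 9 were bound (69.2%), beside 52.2% of all head-to-head genes. The same number, 9 of 13, had a promoter summit among the strongest regions of each replicate. Of the 20 V-ATPase genes that are not head to head 4 were bound (20%), Vha16-1, Vha68-2, Vha13 and VhaM9.7-c, beside 16.4% of all such genes. Among widely used copies, 6 of 8 head-to-head genes and 3 of 6 others were bound, and among tissue-restricted paralogs 2 of 3 and 1 of 12. Head-to-head genes made up 8 of 14 widely used copies and 3 of 15 tissue-restricted paralogs, so the classes differ in this feature, whose part in their difference was not tested. The bound pairs join a V-ATPase gene to Vti1b, Snx3, mTor, COX8, noi, Hmgs, CG8187, dgt6 or CG12299. In each pair a start of the partner lay within 500 bp of a summit of the V-ATPase gene. The same summit therefore called both genes bound, and the call of the partner adds nothing of its own.

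The 5 widely used copies without an optimal promoter summit all had a weaker one in the pooled relaxed list, which holds peaks together with background. VhaPPA1-1, which encodes the c'' subunit of the ring, was just outside the optimal list at rank 5555, 69 bp upstream of its TSS, and ranked 6249, 7316 and 6182 in the replicates. VhaSFD, which encodes the regulatory H subunit, followed at rank 5933, 7 bp upstream, with ranks of 3613, 7992 and 7898. The best regions at VhaAC39-1 (subunit d, at the base of the shaft), VhaAC45 (an accessory subunit) and Vha14-1 (subunit F) ranked 8583, 13369 and 20211. Replicate 2 ranked a region at VhaAC45 3465, while replicates 1 and 3 ranked theirs 17459 and 14665. Just inside the end of the optimal list were Vha44 and Vha13 at ranks 4090 and 4807.

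**Figure D3:**
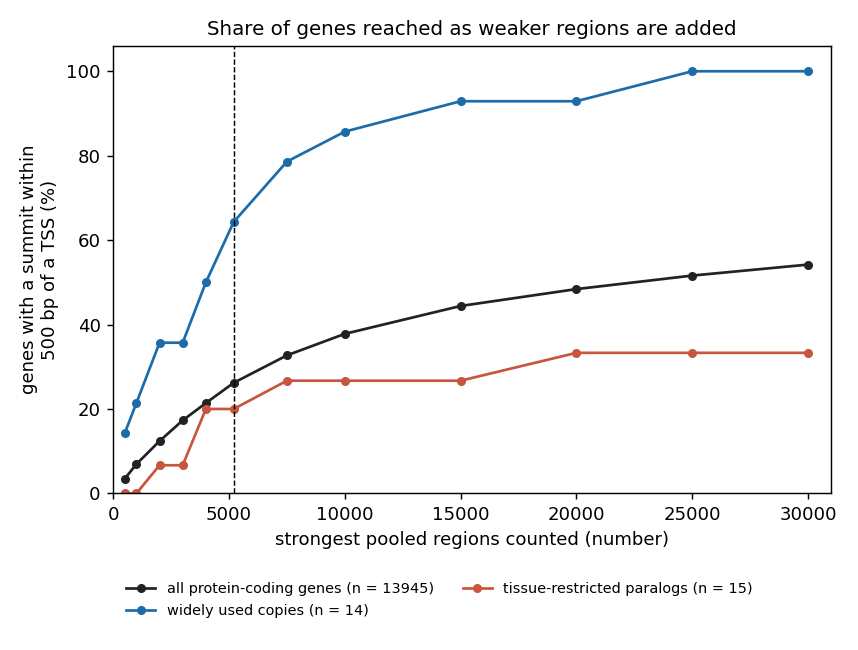
Share of genes (%) with a pooled summit within 500 bp of a TSS as more of the strongest pooled regions are counted, for all 13945 protein-coding genes (black), 14 widely used copies (blue) and 15 tissue-restricted paralogs (red). The dashed line marks rank 5202, and at the end of the list, 30000 regions, the shares are 54.2%, 100% and 33.3%.

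Counting any region of the pooled relaxed list, 21 of the 33 V-ATPase genes (63.6%) had a promoter summit, beside 54.2% of all genes. All 14 widely used copies had one, and so they did in each replicate's own relaxed list. Of the 15 tissue-restricted paralogs 5 had one in the pooled list and 6, 4 and 4 in replicates 1, 2 and 3, a mean of 31.1% ± 7.70 (SD, n = 3), against 53.9% ± 1.90 of all genes. VhaAC39-2 was just outside the optimal list at rank 5693 (replicates 10731, 5403 and 4820), and Vha16-2 had a region at rank 18398 that was found again in replicate 1 alone. The widely used copies have more annotated start positions, 1.64 per gene against 1.20, and therefore more windows. With the first TSS of each gene alone, 9 widely used copies and 3 tissue-restricted paralogs were again bound.

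No region of any of the 4 relaxed lists lay at the starts of Vha100-3, Vha100-4, Vha14-2, Vha16-3, Vha16-4, Vha36-2, Vha68-3, VhaM9.7-d and VhaPPA1-2, all classed as tissue-restricted, or of Vha100-5 and VhaAC45RP, of unclear use. Vha36-3 had none but a region of replicate 1 at rank 26653. VhaM9.7-a, of unclear use, had a region of pooled rank 9142, 180 bp upstream of its start. For these genes the nearest optimal summit was between 1698 bp (Vha36-3) and 68156 bp (Vha100-5) away. The summit nearest Vha36-3 lay inside AANATL7, whose start is next to that of Vha36-3 on the opposite strand, and that nearest Vha68-3 was the promoter summit of Vha68-2. Vha14-1 had an optimal summit of rank 515 at 846 bp downstream of its TSS, beyond the end of the gene and near the start of Gmppa.

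**Figure D4:**
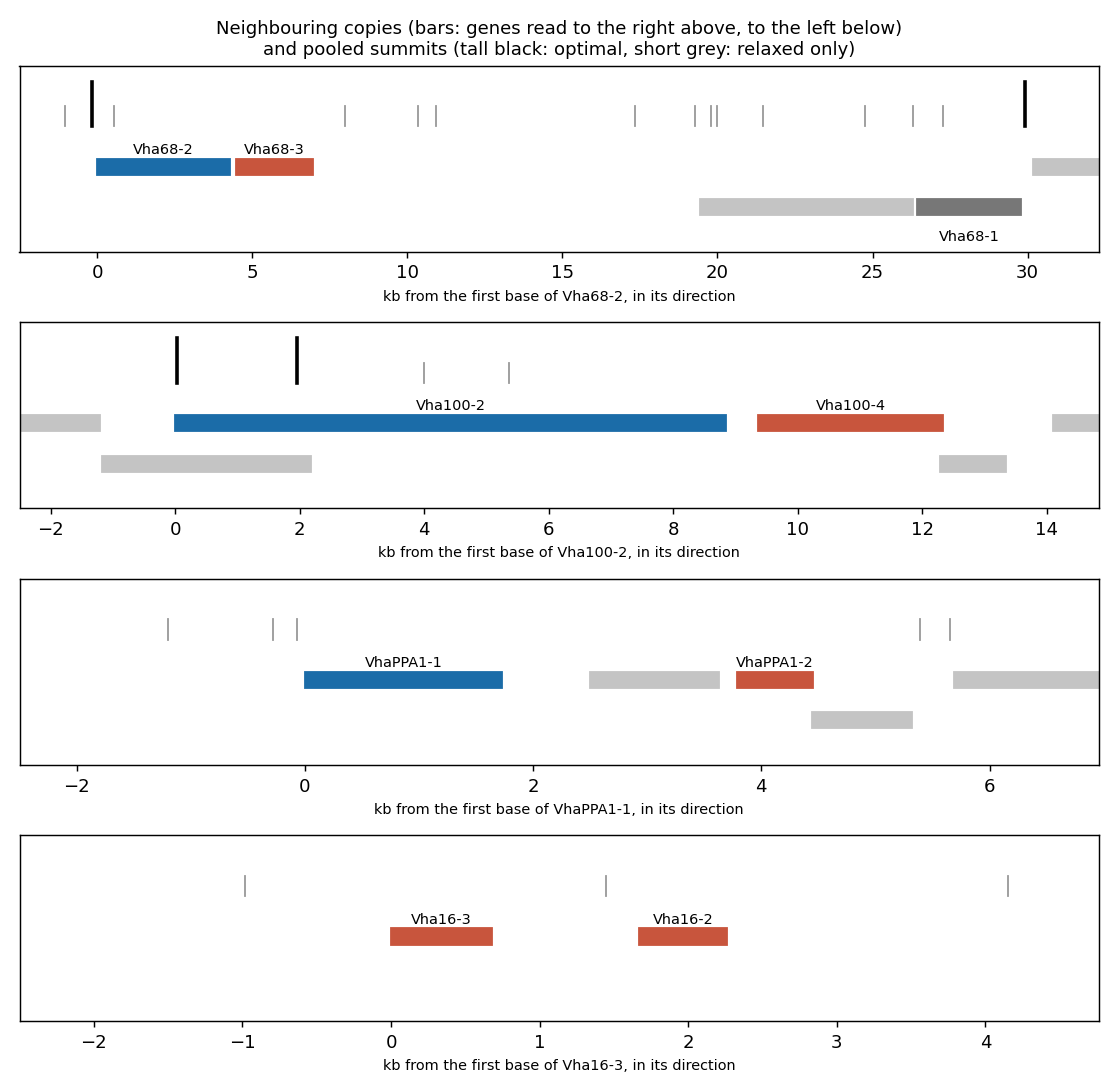
Genes and pooled summits at 4 loci with neighbouring V-ATPase copies, in kb from the first base of the named gene, with genes read to the right above and to the left below (blue widely used, red tissue-restricted, dark grey unclear use, light grey other genes), and optimal (tall black) and relaxed (short grey) summits. Optimal summits lie at Vha68-2, Vha68-1 and Vha100-2, and none lies at the starts of Vha68-3, Vha100-4, VhaPPA1-2, Vha16-2 or Vha16-3.

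Some copies that lie side by side had unlike peaks. Vha100-2 and Vha100-4 are read in the same direction with 517 bp between them, and Vha100-2 had summits of ranks 309 and 400 while Vha100-4 had no region in any list. Vha68-2 and Vha68-3 are 178 bp apart, and the first was bound at rank 3670 and the second not. VhaPPA1-1 and VhaPPA1-2, with 1 gene between them, had a region of rank 5555 and none. At Vha16-2 and Vha16-3, both tissue-restricted and 985 bp apart, the only region, at Vha16-2, ranked 18398.

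Copies that encode much alike proteins could have unlike peaks. Vha36-1 and Vha36-3 encode D subunits of which 85% of aligned residues are identical, and Vha36-1 was bound and Vha36-3 was not. Vha16-1 shares 84.1% with Vha16-3, which had no region in any list, but 69.2% with Vha16-5, which was bound. Vha68-1 and Vha68-2, both bound, share 91.9%, the highest value among the 36 pairs of copies of the same subunit. Median identity was 65% in the 4 pairs with both copies bound (45.8 to 91.9%), 60.1% in the 20 with 1 bound (32.1 to 85%) and 43.3% in the 12 with neither (27.3 to 75.8%). The 3 ranges overlap, and pairs that share a gene are not independent.

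**Figure D5:**
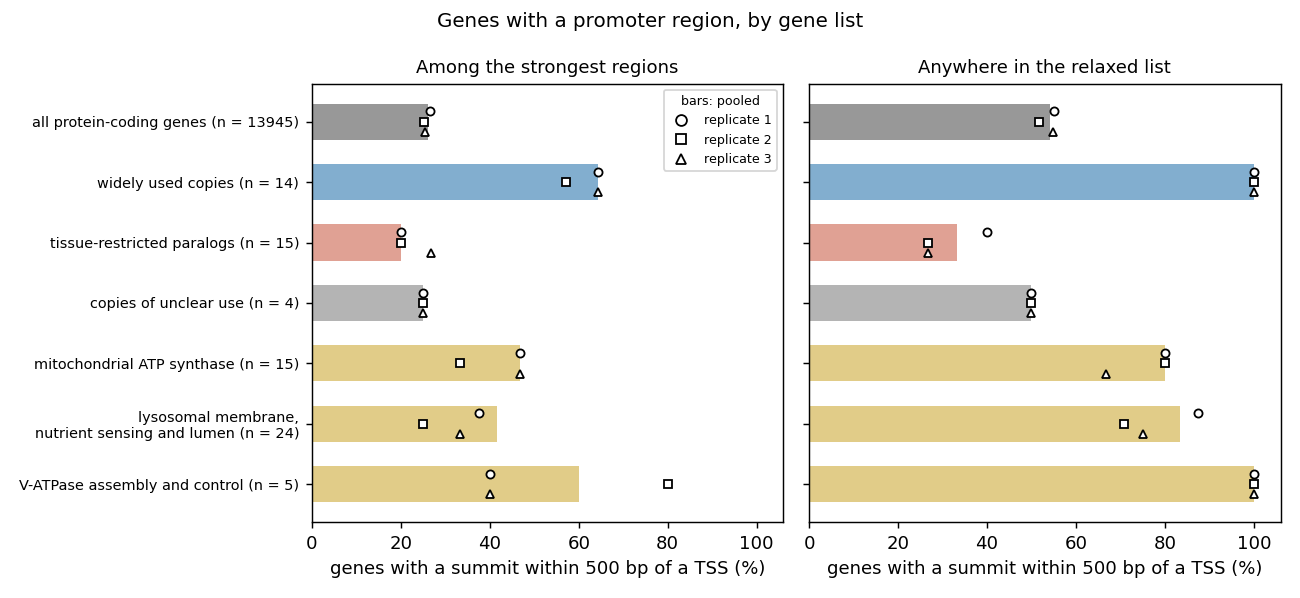
Share of genes (%) with a summit within 500 bp of a TSS for all protein-coding genes, the 3 classes of V-ATPase genes and 3 related gene lists, on the left among the optimal peaks (bars) or the 5202 strongest regions of replicates 1, 2 and 3 (circles, squares, triangles), on the right anywhere in the pooled (bars) or replicate relaxed lists. On the left the widely used copies reach 64.3% and the tissue-restricted paralogs 20%, beside 26.2% of all genes.

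Genes that work with the pump gave a mixed picture. ATP6AP2, which encodes an accessory subunit and whose symbol the rule does not match, had a peak at rank 2514, 44 bp upstream of its start, with ranks of 2315, 2969 and 2944 in the replicates. Of 5 genes for V-ATPase assembly and control 3 were bound (60%), beside 26.2% of all genes, and the replicates held 2, 4 and 2 of them, or 53.3% ± 23.1 (SD, n = 3). This list has 3.4 annotated start positions per gene against 1.41 for all genes, and therefore more windows. The bound genes were mtd (rank 718), CG5969 (rank 3731, with the start of CG32428 also in the window) and Mitf (rank 5002). Mitf encodes a transcription factor known to control V-ATPase genes in flies. The Mitf peak was among the 5202 strongest regions of 1 replicate, with ranks of 5287, 3283 and 8151. Rbcn-3A and Rbcn-3B, whose products are needed for V-ATPase activity, were not bound, with best regions at ranks 7586 and 6591.

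Of 24 genes of the lysosomal membrane, nutrient sensing and lumen, 10 were bound (41.7%), beside 26.2% of all genes. The replicates held 9, 6 and 8 of them, or 31.9% ± 6.36 (SD, n = 3), beside 25.6% ± 0.736 of all genes, which is within the spread of the former. The strongest peak was at Lamtor3 (rank 229), of the Ragulator complex that ties the V-ATPase to TOR signalling. Lamtor5 (4178), Lamtor4 (4964) and RagA-B (3392) were also bound, while Lamtor1, Lamtor2 and RagC-D were not. Another gene start lay within 500 bp of the summits at Lamtor3 (fws), Lamtor4 (Gr63a) and RagA-B (CG11970). The same held for CtsB, CtsL1, Npc1a, Vps39 and car, but not for Lamtor5 or spin. Which gene such a peak belongs to was not tested. The peaks at Lamtor4, Npc1a and Vps39 were each among the strongest regions of 1 replicate alone. Genes of the mitochondrial ATP synthase, the related rotary enzyme, were bound in 7 of 15 cases (46.7%, beside 26.2% of all genes), with ranks from 1632 (ATPsynE) to 4187 (ATPsynCF6). In the replicates this was 42.2% ± 7.70 (SD, n = 3), beside 25.6% ± 0.736 of all genes. The summits at ATPsynE, ATPsynF, ATPsynCF6 and ATPsyngamma had the start of another gene within 500 bp. The 4 ATP synthase genes whose symbols end in L, a split made after the values were seen, included none that was bound. The 11 others included 7 (63.6%), beside 26.2% of all genes.

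Short motifs chosen from general knowledge were looked for on both strands within 100 bp of the 16 summits. The share of all 5202 optimal summits with a match is given beside each, and these include summits away from promoters. The DRE sequence TATCGATA of the factor DREF was at none of the 16 (5.25% of all), and its core ATCGAT, which it contains, was at those of Vha13, Vha16-5, Vha36-1 and Vha68-2 (13.6% of all). GGTCACAC, the core of a common fly promoter motif, was at a summit of Vha16-1 and at that of Vha68-2 (3.44% of all). TCACGTGA, the extended E box of Mitf-type factors, and CACGTG, which it contains, were at the Vha44 summit alone, beside 0.135% and 1.98% of all. TCACGTGA was within 250 bases before to 50 after the first TSS of 1 of the 33 genes, again Vha44, and of 0.172% of 13945 promoters. CAGCTG was at the summits of Vha36-1 and Vha44 (9.25% of all), GAGAG at 5 summits of 4 genes (23.1%) and TATAAA at 5 (34.7%). A match is a description of the sequence and not a site of binding.

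The 8-base sequence most concentrated at optimal summits, chosen after these were seen, was CAACACTG. Among 8-base sequences found at over 60 summits it had the highest ratio, with 100 of the 5202 windows of 40 bases either side of a summit and a mean of 15.5 in windows 300 bp away. Within 100 bp it was at 3 of the 16 V-ATPase summits, those of Vha36-1, Vha44 and VhaM9.7-c, and at 3.90% of all. In the VhaM9.7-c sequence above it is read from the other strand. The 13 other V-ATPase summits held no match in this window.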

How the data were processed

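CG12155-eGFP chromatin was mapped by ChIP-seq in 3 replicates of whole embryos aged 0 to 24 hours, with chromatin sonicated to 200 to 800 bp, per the labels. The labels name CG12155 as the antibody's target and, elsewhere, GFP. By the deposited notes, the dm6 lists hold relaxed regions, called for each replicate (30000, 29643 and 30000) and on the pool (30000), and 5202 optimal peaks. Each deposited list gives a signal value per region, set by the authors' peak caller, which is not given in the sources used here. Signal has no stated scale, so it served to rank regions within a list. Depth is unknown. The 5 dm3 lists were not used.

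Genes and 19252 TSS positions came from Ensembl release 115. A summit was the offset added to the start of its interval. Regions were matched by an overlap of 1 bp or more. Protein identity came from global alignments of the longest annotated translations (Biopython 1.88). Members, gene classes, lists and motifs were chosen with earlier results of these data known, so shares are descriptions beside those of all genes. All 33 members are accounted for, and every bound member is named, with its ranks. The assignment of summits to genes was tested on simulated data. Alternatives were windows of 200 and 1000 bp, stricter peak sets, interval overlap, 1 TSS per gene, head-to-head genes left out, each replicate left out, and other classes for the copies of unclear use.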

Additional observations from a re-analysis of the deposited data

How the results depend on the processing

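Of 32 alternative counts, 26 stayed within 1.5 times the count reported. With the 2601 strongest optimal peaks, 7 subunit genes were bound (21.2%, beside 15.4% of all genes), with 5 widely used copies (35.7%) and 1 tissue-restricted paralog (6.67%). Peaks supported by all 3 replicates lay at 10 subunit genes (30.3%, beside 20.1% of all genes). Of the widely used copies 6 (42.9%) were then bound, and of the tissue-restricted paralogs still 3 (20%). With head-to-head genes left out, 4 of 20 subunit genes remained bound (20%, beside 16.4% of such genes), with 3 of 6 widely used copies and 1 of 12 tissue-restricted paralogs (50% and 8.33%). The shares fell as well as the counts, since 9 of the 13 genes left out were bound (69.2%). With each replicate left out in turn and support asked of both others, 10 to 12 subunit genes, 6 to 8 widely used copies and 3 tissue-restricted paralogs were bound, beside 21.2 to 21.8% of all genes; the optimal list itself draws on all 3 replicates. No paired analysis was possible because there is 1 group. With 14 and 15 genes in the main classes, 1 gene moves a share by several percentage points, and depth could not be weighed.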
